A study of Homo sapiens with 3 samples.

Results

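BRCA1, BRCA2, PALB2, FANCD2, FANCI, FANCA, BRIP1, BLM and EXO1 act in the repair of DNA breaks by homologous recombination and in the Fanconi anaemia pathway of crosslink repair. These 9 genes were chosen by symbol, with earlier results of these data known, because USP16 removes ubiquitin from histone H2A and H2A ubiquitination acts at DNA breaks. They were found by name among the 60930 entries of the expression table, of which 59719 had a symbol of their own. A mean of 1 TPM or more (a transcript level divided by transcript length and scaled to the same total in every library) over the libraries was reached by 13637 genes, and all 9 were among them. These 13637 are called the tested genes below, although no significance test could be run on them.

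The RNA-seq data came from 3 libraries of PC3, an epithelial, androgen-independent human prostate cancer cell line. One library came from cells with the control hairpin (shCON), 1 from cells with the hairpin shUSP16#1 against USP16 and 1 from cells with shUSP16#2. The hairpins were carried by the pLKO.1 vector, and the stable lines were selected with puromycin, so each hairpin was represented by 1 selected line set against 1 control line. With 1 library for each condition there is no replicate check on any difference, no error can be attached to a level, and both hairpin comparisons share the shCON library. TPM keeps no record of the number of reads, so the depth behind each value is unknown.

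In this pathway, the Fanconi core complex recognises a crosslink at a stalled fork and attaches ubiquitin to the pair FANCD2 and FANCI, which then marks the lesion for unhooking. A break left by that process, or made in any other way after replication, is trimmed by nucleases such as EXO1 and helicases such as BLM to leave a single strand. BRCA1, PALB2 and BRCA2 then prepare that strand for copying from the sister chromatid. Most of these genes are transcribed mainly in dividing cells, in S phase, and inherited loss of BRCA2, BRCA1 or PALB2 function is known in prostate cancer.

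The hairpins are shown because every comparison rests on them, with their sense sequences as the study designed them.
shUSP16#1: gccagaagaaatcatgtttat
shUSP16#2: cggtgatattccacaagattt
Each of these 21-base sequences was found whole in 5 of the 6 USP16 transcripts of GENCODE release 29. The longest identical run that shUSP16#1 shared with any transcript of the 9 repair genes was 11 bases, in BLM. For shUSP16#2 it was 9 bases, also in BLM. USP16 itself was at 19.92 TPM in shCON, 3.50 TPM with shUSP16#1 and 1.08 TPM with shUSP16#2. The targeted transcript was therefore at 17.6% and 5.42% of its level in shCON, and lowest in the shUSP16#2 library.

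All 9 genes had their highest TPM in shCON, an intermediate TPM with shUSP16#1 and their lowest TPM with shUSP16#2. Under shUSP16#1 their TPM was between 41.2% (FANCI) and 84.0% (FANCD2) of shCON, with a median of 60.1%. Under shUSP16#2 it was between 24.4% (BRCA2) and 58.4% (FANCA) of shCON, with a median of 34.3%. Their summed level was 130.52 TPM in shCON, 78.23 TPM with shUSP16#1 and 54.03 TPM with shUSP16#2. In bulk RNA, fewer cells in the phase of the cycle that uses these genes and less of their RNA in each cell cannot be told apart.

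**Figure D1:**
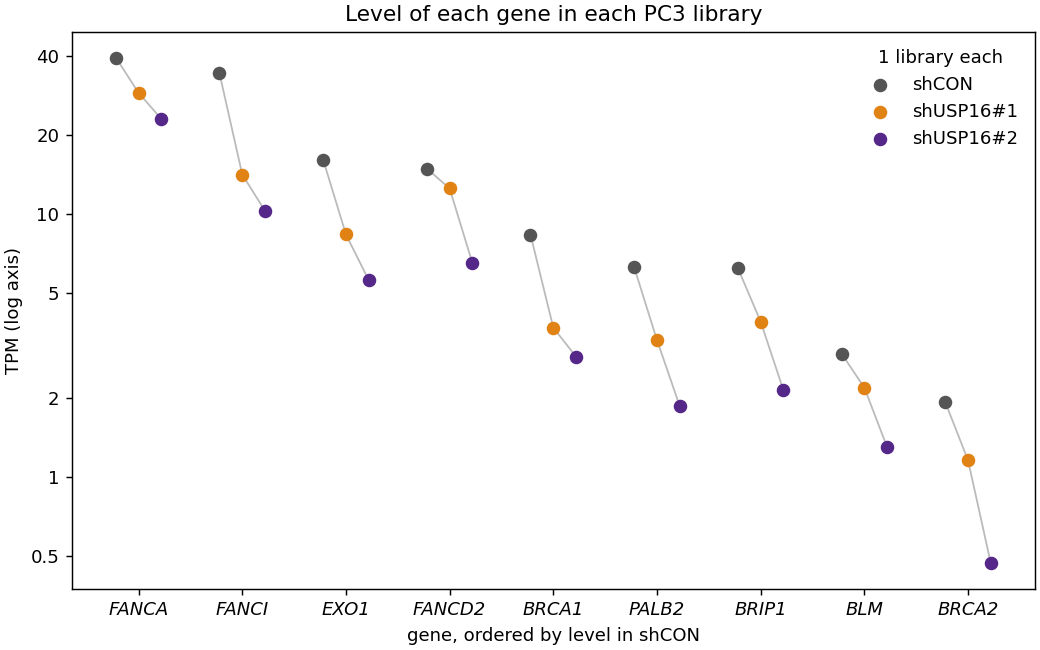
Level of each of the 9 genes in TPM (log axis) in the shCON, shUSP16#1 and shUSP16#2 libraries, 1 point for each library, with grey lines joining the points of a gene. Every gene steps down from shCON through shUSP16#1 to shUSP16#2, from 39.39 to 22.99 TPM for FANCA at the left and from 1.93 to 0.47 TPM for BRCA2 at the right.

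The difference from shCON was taken on the log2(TPM + 1) scale, where the change of a gene at a low level is understated. On this scale the median of the 9 genes was -0.56 under shUSP16#1 (from -1.22 to -0.23) and -1.21 under shUSP16#2 (from -1.65 to -0.75). The median of all tested genes was itself below 0, at -0.17 and -0.37, so that the genes' medians lay 0.39 and 0.84 lower than that of all tested genes. Being lower than in shCON was common: 61.7% of the tested genes were lower under shUSP16#1 and 70.2% under shUSP16#2, against 9 of 9 here. Below the median of all tested genes under both hairpins lay 9 of the 9 genes and 41.7% of the tested genes.

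A level at least 2-fold lower on the log2(TPM + 1) scale was reached under shUSP16#1 by 1 of the 9 genes, FANCI, against 5.79% of the tested genes. Under shUSP16#2 it was reached by 6 of the 9, against 19.5% of the tested genes. These were BRCA1, PALB2, FANCD2, FANCI, BRIP1 and EXO1, while BRCA2 missed the threshold narrowly and BLM and FANCA had smaller differences. In TPM without the pseudocount, BRCA2 was at 24.4%, BLM at 44.1% and FANCA at 58.4% of shCON under shUSP16#2. On the log2(TPM + 1) scale FANCI alone was at least 2-fold lower under both hairpins (1 of 9, against 4.60% of the tested genes). None of the 9 was at least 2-fold higher under both, which held for 1.14% of the tested genes.

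**Figure D2:**
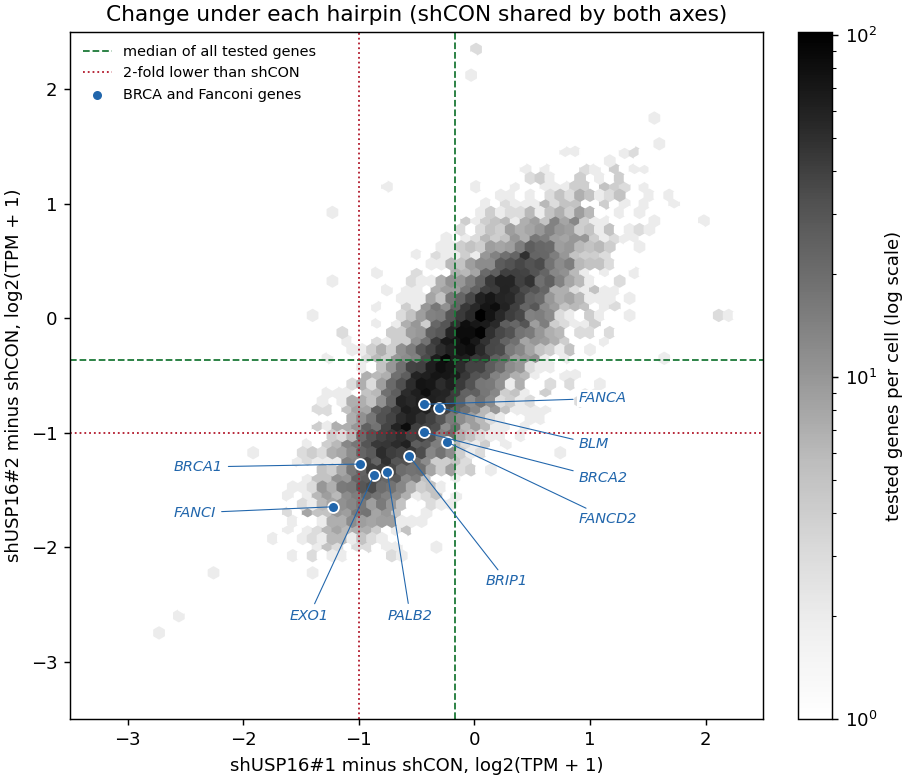
Difference from shCON in log2(TPM + 1) under shUSP16#1 (horizontal) and shUSP16#2 (vertical) for all 13637 tested genes (grey cells, darker where more genes fall) and the 9 repair genes (blue points), with 1 library behind each condition and shCON shared by both axes. All 9 points lie below and to the left of the dashed medians of all tested genes (-0.17 and -0.37), and FANCI is the only one past both dotted 2-fold lines.

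Gene positions are those of GENCODE release 29 on GRCh38. FANCA (ENSG00000187741, chromosome 16 from 89737549 to 89816657, reverse strand) encodes a subunit of the Fanconi core complex and is the gene most often mutated in Fanconi anaemia. It was the most abundant of the 9 in every library, at 39.39 TPM in shCON, 28.93 TPM with shUSP16#1 and 22.99 TPM with shUSP16#2. Its log2 differences of -0.43 and -0.75 were among the smaller ones. FANCA also stood apart in base composition: its longest transcript has a GC content of 55.4%, while the other 8 genes run from 36.3% (BRCA2) to 44.0% (FANCD2).

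FANCI (ENSG00000140525, chromosome 15 from 89243949 to 89317261, forward strand) and FANCD2 (ENSG00000144554, chromosome 3 from 10026414 to 10101930, forward strand) encode the paired proteins that the core complex ubiquitinates. FANCI was at 34.34 TPM in shCON, 14.14 TPM with shUSP16#1 and 10.28 TPM with shUSP16#2, with log2 differences of -1.22 and -1.65. On the log2(TPM + 1) scale those were the largest decreases among the 9 genes under either hairpin, although BRCA2 (24.4%) and PALB2 (29.6%) were at a lower percentage of shCON than FANCI (29.9%) under shUSP16#2. Only 2.67% and 3.34% of the tested genes had a lower value than FANCI on that scale. FANCD2 was at 14.91 TPM in shCON, 12.52 TPM with shUSP16#1 and 6.51 TPM with shUSP16#2, or -0.23 and -1.08 on the log2 scale. Its value under shUSP16#1 was the smallest difference of the 9 and close to the median of all tested genes, whereas under shUSP16#2 it was at 43.7% of shCON. The partners therefore did not keep a fixed proportion: there was 2.30 times as much FANCI as FANCD2 in shCON, 1.13 times as much under shUSP16#1 and 1.58 times as much under shUSP16#2.

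BRCA1 (ENSG00000012048, chromosome 17 from 43044295 to 43170245, reverse strand) encodes a ubiquitin ligase that promotes end resection and recruits PALB2. It was at 8.36 TPM in shCON, 3.70 TPM with shUSP16#1 and 2.87 TPM with shUSP16#2, with log2 differences of -0.99 and -1.27. Under shUSP16#1 it thus stood just short of the 2-fold threshold on the log2(TPM + 1) scale, although its TPM was 44.3% of shCON. It had the smallest step between the hairpins, -0.28. PALB2 (ENSG00000083093, chromosome 16 from 23603160 to 23641310, reverse strand), the bridge between BRCA1 and BRCA2, was at 6.28, 3.32 and 1.86 TPM in the same order. Its log2 differences were -0.75 and -1.35.

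BRCA2 (ENSG00000139618, chromosome 13 from 32315474 to 32400266, forward strand), which acts on single-stranded DNA downstream of PALB2, had the lowest level of the 9 in every library. It was at 1.93 TPM in shCON, 1.16 TPM with shUSP16#1 and 0.47 TPM with shUSP16#2. The last value is 24.4% of shCON, the lowest proportion of any of the 9, although the log2(TPM + 1) difference was only -0.995 because the level was near the pseudocount. With a pseudocount of 0.1 its differences were -0.69 and -1.83. There was 3.25 times as much PALB2 as BRCA2 in shCON, 2.86 times as much under shUSP16#1 and 3.96 times as much under shUSP16#2.

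BRIP1 (ENSG00000136492, chromosome 17 from 61681266 to 61863521, reverse strand) encodes a helicase that binds BRCA1 and unwinds DNA at crosslinks. It was at 6.24 TPM in shCON, 3.90 TPM with shUSP16#1 and 2.14 TPM with shUSP16#2, with log2 differences of -0.56 and -1.21 that were also the medians of the 9. BLM (ENSG00000197299, chromosome 15 from 90717327 to 90816165, forward strand), the helicase that is lost in Bloom syndrome and that dissolves crossed strands, was at 2.95, 2.19 and 1.30 TPM. Its log2 differences of -0.31 and -0.78 were among the smallest, and 40.6% and 28.7% of the tested genes were lower.

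EXO1 (ENSG00000174371, chromosome 1 from 241847967 to 241895148, forward strand) encodes the nuclease that extends resected ends and also serves mismatch repair. It was at 16.12 TPM in shCON, 8.37 TPM with shUSP16#1 and 5.61 TPM with shUSP16#2. Its log2 differences were -0.87 and -1.37.

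The order of the levels was largely kept. FANCA and FANCI held the top places and BLM and BRCA2 the bottom places in all 3 libraries. In the middle, EXO1 was above FANCD2 in shCON and below it under both hairpins, and BRCA1, PALB2 and BRIP1 changed places among themselves. PALB2 and BRIP1 differed by little in shCON (6.28 and 6.24 TPM), and no spread is available by which to tell neighbours in this order apart.

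The step from shUSP16#1 to shUSP16#2 was downward for 9 of the 9 genes, against 73.4% of the tested genes. Its median was -0.50 on the log2 scale, where all tested genes had a median of -0.21. FANCD2 had the largest step, -0.85, followed by BRIP1 (-0.64) and PALB2 (-0.60). The smallest steps belonged to BRCA1 (-0.28), FANCA (-0.32) and FANCI (-0.42).

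The changes across the whole table depended on the GC content of the transcripts, which bears on the 9 genes because most of them are poor in GC. Their median GC content was 42.4%, against 49.1% for the tested genes. When the tested genes were split into 10 bins by GC content, the lowest bin had median log2 differences of -0.60 and -1.05 under the hairpins, and the highest bin had 0.24 and 0.22. The cause of the GC trend was not tested.

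With the median of genes of like GC content subtracted and the median of all tested genes added back, the median of the 9 genes was -0.49 under shUSP16#1 and -0.82 under shUSP16#2. The median step of the 9 genes from shUSP16#1 to shUSP16#2 was -0.37 on this scale, against -0.50 before. FANCI then had differences of -0.96 and -1.28, FANCA -0.63 and -1.03, and BRCA1 -0.66 and -0.82. PALB2 (-0.49 and -0.99) and EXO1 (-0.61 and -0.98) also remained below the median of all tested genes under both hairpins. FANCD2 (-0.03 and -0.77) and BRIP1 (-0.11 and -0.52) lay above that median under shUSP16#1 and below it under shUSP16#2. BRCA2 (0.010 and -0.29) and BLM (0.064 and -0.20) turned slightly positive under shUSP16#1 and stood above the median of all tested genes under both. These genes were at low levels, where log2(TPM + 1) understates a change: under shUSP16#2 their TPM was 24.4% and 44.1% of shCON. The GC trend was not removed with a smaller pseudocount. On this scale 5 of the 9 genes lay below that median under shUSP16#1 and 7 under shUSP16#2. Through the subtraction itself, about as many tested genes lie below that median as above it under each hairpin. At least 2-fold lower were 0 and 2 of the 9, the latter being FANCI and FANCA, against 3.08% and 9.79% of all tested genes.

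**Figure D3:**
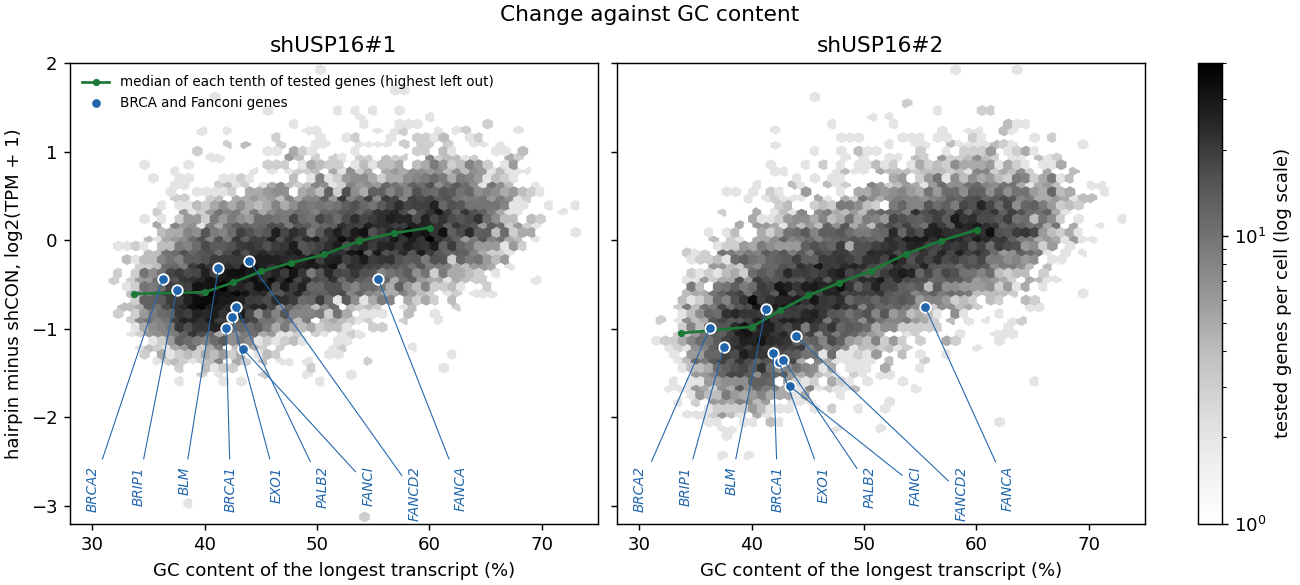
Difference from shCON in log2(TPM + 1) against the GC content of the longest transcript, for shUSP16#1 (left) and shUSP16#2 (right), with tested genes as grey cells, the 9 repair genes as blue points and the medians of genes binned by GC content, without the highest bin, as a green line. BRCA2 (36.3% GC), BRIP1 and BLM lie on or near the line, while FANCI, FANCA, BRCA1, EXO1 and PALB2 lie under it in both panels. BRCA2 and BLM are at low levels, where this scale understates a change.

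Stretches upstream of the start sites are shown because the 9 genes were lower together. They were taken from RefSeq (GRCh38.p14), which gave 10 windows for 8 of the 9 genes. Each window ran from 250 bases before the transcript start to 50 after it. FANCI had no entry. The letters searched, on both strands, were TTTCCCGC, TTTCGCGC, TTTGCCGC and TTTGGCGC for an E2F-type motif, TTTGAA and TTCGAA for a CHR-type motif, CCAAT, and CACGTG for an E-box. E2F and CHR elements are known from promoters of cell cycle genes, CCAAT is the box bound by NF-Y, and the E-box CACGTG is bound by Myc and related factors. A match describes only the letters in the window, and a window without one says nothing about the factor. Of each sequence below, 180 bases before the start and 30 after it are printed, 5′ to 3′ on the strand of the gene, with the matched letters in capitals.
FANCA (chr16:89816618-89816827, reverse strand): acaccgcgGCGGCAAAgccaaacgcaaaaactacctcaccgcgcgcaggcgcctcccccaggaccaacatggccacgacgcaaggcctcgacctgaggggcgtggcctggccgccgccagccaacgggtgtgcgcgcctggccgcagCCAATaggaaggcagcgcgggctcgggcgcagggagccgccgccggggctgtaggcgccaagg
FANCD2 (chr3:10026257-10026466, forward strand): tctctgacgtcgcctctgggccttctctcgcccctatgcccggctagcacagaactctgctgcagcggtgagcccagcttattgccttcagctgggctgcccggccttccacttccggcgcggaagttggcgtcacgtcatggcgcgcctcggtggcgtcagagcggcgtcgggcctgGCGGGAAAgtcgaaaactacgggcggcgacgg
BRCA1 (chr17:43125335-43125544, reverse strand): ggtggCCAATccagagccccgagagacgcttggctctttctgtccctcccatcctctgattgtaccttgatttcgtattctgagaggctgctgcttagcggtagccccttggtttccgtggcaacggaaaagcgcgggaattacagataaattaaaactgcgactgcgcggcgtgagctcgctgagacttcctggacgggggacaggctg
PALB2 (chr16:23641281-23641490, reverse strand): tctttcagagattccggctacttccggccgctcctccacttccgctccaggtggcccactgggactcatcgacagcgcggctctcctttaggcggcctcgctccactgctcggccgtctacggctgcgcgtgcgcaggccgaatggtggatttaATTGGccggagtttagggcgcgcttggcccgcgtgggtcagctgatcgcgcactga
BRCA2 (chr13:32315328-32315537, forward strand): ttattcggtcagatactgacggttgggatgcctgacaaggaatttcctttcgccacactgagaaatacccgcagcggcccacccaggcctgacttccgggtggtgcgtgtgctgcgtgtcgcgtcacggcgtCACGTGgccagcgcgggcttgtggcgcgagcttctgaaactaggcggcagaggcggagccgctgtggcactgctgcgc
EXO1 (chr1:241848024-241848233, forward strand): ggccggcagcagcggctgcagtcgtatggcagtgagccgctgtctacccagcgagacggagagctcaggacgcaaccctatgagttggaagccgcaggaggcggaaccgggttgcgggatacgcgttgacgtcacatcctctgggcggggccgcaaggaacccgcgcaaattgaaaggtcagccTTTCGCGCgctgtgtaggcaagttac
An E2F-type match was in 3 of the 10 windows, against 3.31% of all 35116 promoters in the reference and 5.0% of the 13889 promoters of tested genes. In EXO1 it was TTTCGCGC with its first base at position 5 after the start, in FANCD2 GCGGGAAA at position -2 and in FANCA GCGGCAAA at position -172. No searched motif overlapped another in these windows. CCAAT or its complement ATTGG was in 5 of the 10 windows, against 34.6% of all promoters. It was found at -33 in FANCA, at -26 in PALB2 and at -175 in BRCA1, and 3 times each in BLM (-141, -46 and -21) and BRIP1 (-117, -49 and -28). The E-box was found only in BRCA2, at -48, in 1 of 10 windows against 7.26% of all promoters. A CHR-type match (TTCAAA) was found only in BRIP1, at -240, in 1 of 10 windows against 16.4% of all promoters.

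Several of these genes share a start region or overlap with a gene on the other strand, which provides a level measured beside them on the chromosome. Starts on the opposite strand within 1000 bases were annotated in GENCODE release 29 for 5 genes, 3 of them tested. On either strand, 15 genes overlapped one of the 9, of which 5 were tested. Whether the libraries kept strand is not given in the sources used here, so reads of overlapping genes may not be separable. CIDECP, a pseudogene whose start lies 49 bases from that of FANCD2, was at 12.32, 16.98 and 11.62 TPM in shCON, shUSP16#1 and shUSP16#2. FANCD2 was at 84.0% and 43.7% of shCON in the same libraries. DCTN5, a dynactin subunit that starts 82 bases from PALB2, was at 26.69, 16.87 and 20.86 TPM, so it was lowest under shUSP16#1, not under shUSP16#2 as PALB2 was. NBR1, an autophagy receptor that starts 236 bases from the most upstream BRCA1 start, was at 14.21, 13.91 and 10.33 TPM. NBR2, a long non-coding RNA divergent from the main BRCA1 promoter, was at 2.66, 2.85 and 2.20 TPM, against the decrease of BRCA1 to 44.3% and 34.3% of shCON.

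POLG, which encodes the mitochondrial DNA polymerase and overlaps the end of FANCI on the other strand, was at 20.05 TPM in shCON, 20.12 TPM with shUSP16#1 and 20.05 TPM with shUSP16#2. FANCI was at 41.2% and 29.9% of shCON beside it. ZNF276, a zinc finger gene that overlaps the end of FANCA, was at 16.39, 14.62 and 12.69 TPM, with log2 differences of -0.15 and -0.35 where FANCA had -0.43 and -0.75. The other tested genes that overlap BRCA1 were at low levels: AC135721.1 was at 1.10, 0 and 4.42 TPM, and AC060780.1 at 1.5, 1.34 and 0.54 TPM. ZAR1L, which starts 130 bases from BRCA2, was listed at 0 in all libraries, CRTC3-AS1, which starts 186 bases from BLM, was at 0.27 TPM or less, and FANCD2OS was listed at 0 in shCON and under shUSP16#1 and at 0.19 TPM with shUSP16#2. The pseudogene FANCD2P2 was listed at 0 in all 3 libraries. BRCA1 and FANCD2 have pseudogene copies, and how reads that match more than 1 copy were assigned is not given in the sources used here.

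**Figure D4:**
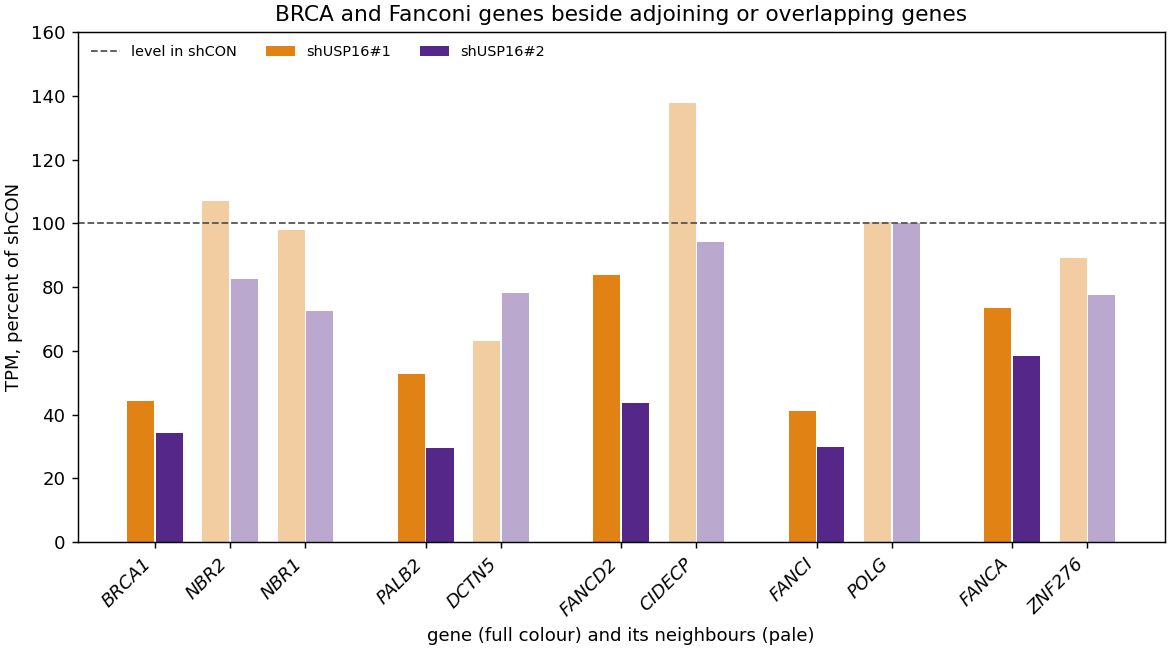
TPM as a percentage of shCON under shUSP16#1 (orange) and shUSP16#2 (purple), 1 library for each bar, for 5 repair genes (full colour) and the genes that adjoin or overlap them (pale), with a dashed line at the shCON level. FANCI stands at 41.2% and 29.9% beside POLG at its shCON level, and BRCA1 at 44.3% and 34.3% beside NBR1 and NBR2, whose bars lie higher in both colours. AC135721.1 and AC060780.1, tested genes at low levels that also overlap BRCA1, are not drawn.

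The 9 genes were set beside 9 other lists of DNA repair genes, with 146 genes that are not among the 9, of which 143 were tested. Over these 143 the median log2 differences were -0.41 under shUSP16#1 and -0.65 under shUSP16#2. At least 2-fold lower were 12 of the 143 under shUSP16#1, 50 under shUSP16#2 and 12 under both, to be read against the 5.79%, 19.5% and 4.60% of all tested genes given above. The 9 genes' medians of -0.56 and -1.21 were lower than those of the 143 under both hairpins, by more under shUSP16#2. With the GC trend removed the medians of the 143 were -0.23 and -0.47, where the 9 genes had -0.49 and -0.82. By list they were -0.48 and -0.82 (H2A ubiquitin signalling), -0.38 and -0.63 (strand exchange) and -0.36 and -0.71 (checkpoint). End resection had -0.35 and -0.54, end joining -0.30 and -0.60, and mismatch repair -0.25 and -0.61. Base excision had -0.20 and -0.28, nucleotide excision -0.17 and -0.32, and the Fanconi core list -0.12 and -0.28.

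**Figure D5:**
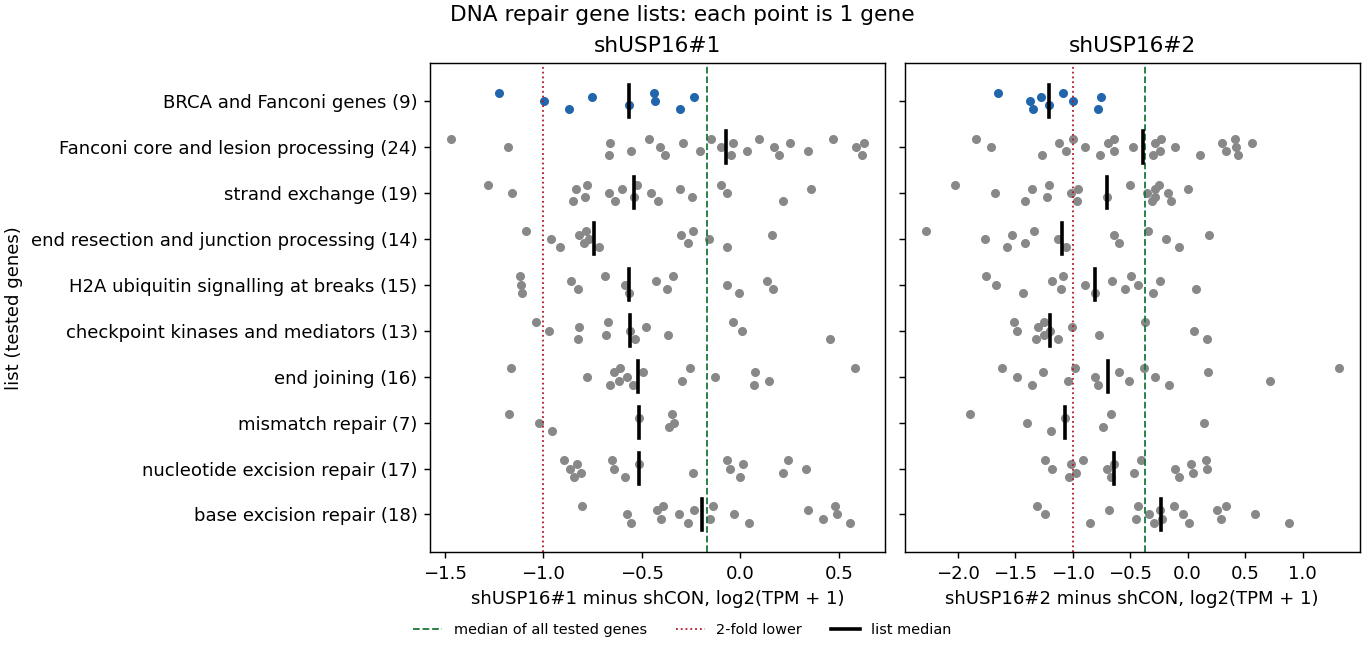
Difference from shCON in log2(TPM + 1) under shUSP16#1 (left) and shUSP16#2 (right) for every tested gene of the 9 chosen genes (blue) and of 9 other repair lists (grey), with black bars at list medians, a dashed line at the median of all tested genes and a dotted line at 2-fold lower. The blue points reach from -1.22 to -0.23 on the left and from -1.65 to -0.75 on the right, while the Fanconi core and lesion processing list is centred near the median of all tested genes, at -0.07 and -0.39.

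The remaining Fanconi genes, those of the core complex and of lesion processing, lay closer to all tested genes than the 9 did. Of 24 tested, 2 were at least 2-fold lower under both hairpins, against 4.60% of all tested genes. The medians of the 24 were -0.07 and -0.39, where all tested genes had -0.17 and -0.37. The largest decreases under both hairpins were those of USP1, the deubiquitinase of FANCD2 and FANCI (16.85, 5.45 and 4.46 TPM in shCON, shUSP16#1 and shUSP16#2), and of FANCL, the ubiquitin ligase of the core complex (16.48, 6.71 and 3.88 TPM). ERCC4, an endonuclease that unhooks crosslinks, was at 1.73, 0.72 and 0.61 TPM, while its partner ERCC1 was higher under both hairpins, at 45.96, 64.14 and 62.74 TPM. FAAP20, which binds FANCA in the core complex, was also higher, at 124.69, 187.64 and 167.44 TPM. FANCG, a core subunit that binds FANCA directly and was named after its values were seen, was at 17.6, 20.34 and 26.35 TPM. There was 2.24 times as much FANCA as FANCG in shCON, 1.42 times as much under shUSP16#1 and 0.872 times as much under shUSP16#2.

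Of 19 other strand exchange genes, 2 were at least 2-fold lower under both hairpins and 7 under shUSP16#2. The shares of all tested genes were 4.60% and 19.5%. The medians of the 19 were -0.54 and -0.70. RAD51AP1, a cofactor of strand invasion, was at 18.72, 7.11 and 3.85 TPM in shCON, shUSP16#1 and shUSP16#2. BARD1, the obligate partner of BRCA1, was at 5.97, 2.12 and 1.19 TPM, lower in proportion than BRCA1 itself, and the ratio of BRCA1 to BARD1 was 1.40, 1.75 and 2.41. The helicase HELQ was at 5.46, 2.63 and 1.81 TPM. ZSWIM7, a subunit of a complex that assists strand exchange, was at 27.46, 35.5 and 27.62 TPM.

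The 14 genes of end resection and junction processing had medians of -0.74 and -1.09. At least 2-fold lower were 8 under shUSP16#2, against 19.5% of all tested genes, and 1 under both hairpins, against 4.60%. That gene was RECQL, a helicase related to BLM, at 15.69, 6.86 and 2.44 TPM in shCON, shUSP16#1 and shUSP16#2. NBN, which binds the MRE11 nuclease at break ends, was at 25.85, 12.82 and 6.91 TPM. RMI1, a partner of BLM in the complex that dissolves crossed strands, was at 4.40, 1.86 and 1.47 TPM, and the ratio of BLM to RMI1 was 0.670, 1.18 and 0.884.

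USP16 removes ubiquitin from H2A, the histone whose ubiquitination acts at breaks, and 15 of the 17 genes listed for that signalling were tested. Of these, 3 were at least 2-fold lower under both hairpins (4.60% of all tested genes) and 6 under shUSP16#2 (19.5%). The medians of the 15 were -0.56 and -0.81. The 3 were RAD18, a ubiquitin ligase (11.54, 4.78 and 2.95 TPM), RIF1, which limits resection (5.69, 2.09 and 0.99 TPM), and BRCC3, the deubiquitinase of the BRCA1-A complex (14.19, 6.05 and 4.65 TPM). BABAM1, another subunit of that complex, was at 131.11, 147.1 and 138.4 TPM. L3MBTL1 and USP44 were below the minimum, with USP44 listed at 0 in all libraries.

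Of 13 checkpoint kinases and mediators, 9 were at least 2-fold lower under shUSP16#2, against 19.5% of all tested genes. Only CLSPN (1 of 13) was so under both hairpins, against 4.60%. The list had medians of -0.56 and -1.20 beside the -0.56 and -1.21 of the 9 genes. CLSPN, the adaptor through which ATR activates CHEK1, was at 4.42, 1.64 and 1.17 TPM in shCON, shUSP16#1 and shUSP16#2. CHEK1 itself was at 27.27, 13.44 and 10.93 TPM, and TOPBP1, an activator of ATR, at 10.87, 5.70 and 3.16 TPM. CHEK2, the kinase downstream of ATM, was higher under both hairpins, at 25.28, 34.99 and 28.52 TPM. RAD9A, a subunit of the checkpoint clamp, was at 17.53, 17.63 and 18.29 TPM.

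End joining, the competing route of break repair, had 16 tested genes of 17 (SHLD3 was below the minimum) with medians of -0.52 and -0.69. Of these 16, 1 was at least 2-fold lower under both hairpins, against 4.60% of all tested genes. That was PRKDC, the kinase that Ku recruits to ends, at 139.86, 61.87 and 44.95 TPM. SHLD2, which shields ends from resection, was at 7.96, 4.22 and 2.21 TPM and XRCC5, a Ku subunit, at 168.58, 106.11 and 85.08 TPM. The polymerase POLL was higher under both hairpins, at 6.37, 10.03 and 11.11 TPM, and PAXX was at 64.71, 68.31 and 73.14 TPM.

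In mismatch repair, which EXO1 also serves, 2 of 7 genes were at least 2-fold lower under both hairpins, against 4.60% of all tested genes. The medians were -0.51 and -1.06. MSH6, which takes part in the recognition of single mispaired bases and was past the threshold under both, was at 24.03, 11.32 and 9.99 TPM. MSH3, which takes part in the recognition of loops, was at 4.18, 1.67 and 1.48 TPM.

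None of 17 nucleotide excision repair genes was at least 2-fold lower under both hairpins, against 4.60% of all tested genes. The medians of the 17 were -0.51 and -0.64. XPA (8.55, 4.14 and 3.88 TPM), ERCC6 (13.71, 7.07 and 6.82 TPM) and RAD23B (59.31, 32.61 and 24.6 TPM) were lower under both, and ERCC2 (28.64, 33.4 and 29.55 TPM) was higher. None of 18 base excision repair genes passed under both, with medians of -0.19 and -0.23. Among these glycosylases, TDG (21.43, 11.84 and 8.5 TPM), NEIL3 (6.02, 3.72 and 2.90 TPM) and UNG (80.91, 54.74 and 59.16 TPM) were lower. MPG (57.79, 85.49 and 107.6 TPM) and NTHL1 (42.24, 59.35 and 63.82 TPM) were higher. With the GC trend removed, ERCC2 (-0.13 and -0.46), RAD9A (-0.36 and -0.46), PAXX (-0.33 and -0.40) and BABAM1 (-0.12 and -0.33) were negative. FAAP20 was then at 0.25 and -0.06. ERCC1, ZSWIM7, CHEK2, POLL, MPG and NTHL1 stayed positive under both hairpins. Among genes named as lower, the values became -0.27 and -0.17 (ERCC4), -0.43 and -0.30 (ERCC6) and -0.20 and -0.31 (NEIL3). Under shUSP16#2 these genes lay above the median of all tested genes. The other genes of the repair lists named as lower stayed below that median under both hairpins.

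EXO1, BLM and BRIP1 also belong to the list of S-phase genes of the Seurat package, and their medians were -0.56 and -1.21. The 6 genes outside that list had medians of -0.60 and -1.18. The 39 tested S-phase genes that are not among the 9 had medians of -0.82 and -0.99. Of these 39, 13 were at least 2-fold lower under shUSP16#1, 19 under shUSP16#2 and 11 under both. The shares of all tested genes were 5.79%, 19.5% and 4.60%. MKI67, the proliferation marker, was at 29.63 TPM in shCON, 12.1 TPM with shUSP16#1 and 8.78 TPM with shUSP16#2, with log2 differences of -1.23 and -1.65 next to those of FANCI (-1.22 and -1.65). The part of a change in cell cycle in the levels of the 9 genes was not tested. With the GC trend removed, the 3 S-phase genes had medians of -0.11 and -0.52 and the other 6 had -0.56 and -0.91. The 39 S-phase genes that are not among the 9 then had medians of -0.60 and -0.75. MKI67 was then at -1.18 and -1.61, lower than FANCI at -0.96 and -1.28.

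Of tested genes whose mean was 5 TPM or more, those whose pair of differences lay nearest to the medians of the 9 genes were WASL (distance 0.017 on the log2 scale), MARCH7 (0.020), ATF5 (0.020), SLC38A2 (0.025) and TTC3 (0.025). WASL was at 8.85, 5.71 and 3.23 TPM and ATF5 at 119.37, 79.89 and 51.85 TPM. The likeness rests on 2 differences from 3 libraries, and 99 of 9297 such genes lay within a distance of 0.1, so many other genes had a similar pair of differences.

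The libraries carried epithelial markers, and the prostate luminal markers were low. The summed TPM of 5 epithelial markers was 2541.93 in shCON, 2454.29 with shUSP16#1 and 2676.02 with shUSP16#2. Its members did not move together: EPCAM was at 273.5, 165.62 and 135.93 TPM and CDH1 at 65.8, 50.58 and 46.38 TPM, while KRT19 was at 507.12, 837.54 and 957.97 TPM. The 5 prostate luminal markers summed to at most 5.10 TPM, with KLK3 and KLK2 listed at 0 in all 3 libraries. The 5 fibroblast markers summed to between 4.62 and 11.36 TPM, with DCN at 0 in all, and most of the sum was COL1A1, at 4.19, 10.71 and 4.78 TPM. Of the 42.43 TPM or less of the 4 immune markers nearly all was CD68. The number of genes at 1 TPM or more was 13763, 13701 and 12984, and GAPDH was at 3581.94, 3911.95 and 3620.48 TPM.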

How the data were processed

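Gene levels were measured by RNA-seq of total RNA in 3 libraries of PC3 cells, 1 for each of shCON, shUSP16#1 and shUSP16#2. Levels were deposited by the authors as TPM, rounded to 2 decimals, in a single table made on the sequencing provider's platform. The submitters' processing notes name CASAVA, HISAT2 and hg19. The tool that turned reads into TPM and the annotation are not given in the sources used here. Gene identifiers were matched to GENCODE release 29 (GRCh38), in which 57308 of 60930 were found, and gene positions are from that release. TPM keeps no depth, so no counting interval was computed.

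Of entries that repeat a symbol, the one with the highest mean TPM was kept and 1211 were left out, and 3 columns of per-library values that repeat others under the same name were not used. The columns of gene annotation were used only for symbols and lengths. Genes whose mean over the libraries was 1 TPM or more were kept. Differences were log2(TPM + 1) under a hairpin minus shCON. With 1 library for each condition no test was possible. Counts of genes at least 2-fold lower or higher were read against the share of all tested genes past the same threshold. The GC trend was removed with the median of 50 bins of the GC content of each gene's longest GENCODE transcript, which 97.5% of tested genes had. RefSeq promoter windows were searched for exact letters.

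The 9 genes and the repair lists were chosen with earlier results of these data known. Named are the 9 genes, USP16 and MKI67. Each list gave up to 3 genes that were lowest and up to 2 that were highest under both hairpins. These were ordered by the smaller of both differences. Also named are pseudogene copies, genes that start within 1000 bases on the opposite strand, genes that overlap on either strand, and the 5 genes of nearest pattern. FANCG and the partner ratios were added after their values were seen. Some genes that this rule names are not reported here. Other settings tried were centring on the all-gene median, a pseudocount of 0.1, removal of the GC trend, a threshold of 1.5-fold, each hairpin alone, no minimum and a minimum of 5 TPM. The procedures were tested on simulated data. Python 3.11.15, numpy 2.4.6, pandas 2.3.3 and matplotlib 3.10.9 were used.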

Additional observations from a re-analysis of the deposited data

How the results depend on the processing

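No paired analysis was possible because a single library stood for each of shCON, shUSP16#1 and shUSP16#2. For the same reason an alternative was taken to change a value when it moved it by more than 1.5 times. The medians of the 9 genes kept within that range under every alternative run. The number of the 9 that both hairpins put at least 2-fold lower was 1, and became 2 with a pseudocount of 0.1, 0 with the GC trend removed, 4 with a threshold of 1.5-fold and 6 under shUSP16#2 alone. The share of all tested genes past 1.5-fold is not given here, so the count of 4 has no background to be read against. The count below the median of all tested genes under both hairpins was 9, and became 5 with the GC trend removed and 4 with a minimum of 5 TPM, since the mean of only 4 of the 9 reached it. For either setting the share of all tested genes below the median under both hairpins is not given here. Of the other repair genes, both hairpins put 12 at least 2-fold lower, against 20 with a pseudocount of 0.1, 4 after centring and 1 with the GC trend removed. The share of all tested genes, 4.60%, became 8.03% with a pseudocount of 0.1, 2.00% after centring, 1.99% with the GC trend removed and 1.19% with no minimum. With the GC trend removed, the differences under shUSP16#1 changed sign for BRCA2 (0.010) and BLM (0.064). Of 54 values of single genes among the 9 under the alternatives, 34 stayed within 1.5 times. Levels near the pseudocount, such as BRCA2 and BLM, are those most limited by the unknown depth.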
